A study of Mus musculus with 28 samples.

Results

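Long intergenic noncoding RNAs (lincRNAs) are spliced, polyadenylated transcripts that lie between protein-coding genes and are not translated into a known protein. The 200 described here are the most abundant of the mouse male germ line in this study. They were chosen by their mean level over 19 libraries of sorted germ cells, out of 1623 genes that the GENCODE M21 annotation (GRCm38, mm10) classes as lincRNA and 37122 genes in the table. Of the 1623, 1585 had a value above 0 in at least 1 of the 19 libraries. The level is RPKM (mapped reads scaled by transcript length and library size), summed over the transcripts of a gene. That mean is what selected the genes, so it is given as a description and carries no test. The last gene inside the limit, Gm26818, had a mean of 3.39 RPKM, after Gm12637 at 3.47 and 1700057H15Rik at 3.63. The first genes outside it were 1600025M17Rik at 3.38, Gm17518 at 3.35 and 4930557F10Rik at 3.34.

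The study asked how loss of Csmd1, a transmembrane regulator of complement, affects the gonads. Germ cells were stained with the DNA dye Hoechst and sorted from dissociated testes into 4 stages: spermatogonia, spermatocytes before and after the first meiotic division (primary and secondary), and spermatids. The mice are labelled C57BL/6, and their genotype is wildtype (WT) or a constitutive Csmd1 knockout (KO) in which a lacZ/neomycin cassette takes the place of the first exon and some of the intron after it. The knockout line was obtained on a mixed 129SvEvBrd:C57BL/6 background. The WT libraries came from mice 178 and 648 (all 4 stages, with whole testis) and mouse 351 (spermatids). The KO libraries came from mouse 544 (all 4 stages), mouse 286 (spermatogonia, secondary spermatocytes, spermatids and whole testis), mouse 550 (both spermatocyte stages) and mouse 614 (primary spermatocytes), with whole testes of mice 214, 269, 273 and 308. The ovary is that of 1 WT female, mouse 86, whose age the sources used here do not give. The mouse is the replicate. The labels give no age. The paper's methods describe the sorted mice as sexually mature, all of 1 age to within a day, with the second testis of a mouse taken whole. Mice 178, 648 and 286 gave both sorted cells and a whole testis. The paper also speaks of whole testes of sexually immature males, and the sources used here do not say which mice these were. For mice 214, 269, 273 and 308, of which no sorted cells are listed, the age is not known here. The only WT testes listed are those of mice 178 and 648, so their ages are not certain either.

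Spermatogenesis starts in spermatogonia, which divide by mitosis. Primary spermatocytes then pass through the long prophase of the first meiotic division, secondary spermatocytes complete meiosis, and haploid spermatids replace their histones with transition proteins and protamines as they elongate. The testis transcribes a larger share of the genome than most tissues, and many lincRNAs are known from the testis alone. During meiotic prophase the X and Y chromosomes are silenced, and some X-linked genes are expressed again in spermatids.

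Depth was estimated at 23811331 to 61657911 mapped reads over the 19 sorted libraries (median 45377053). A further library, the primary spermatocytes of KO mouse 613, lacked a value for 384 of the 417 transcripts of these lincRNAs and was left out. Some libraries stood apart by their stage content. The summed level of 8 late spermatid markers (protamines, transition proteins, Odf1, Smcp and Akap4) was 9625 RPKM in the spermatids of mouse 178 and 9012 RPKM in those of mouse 351, but 725 RPKM in those of mouse 648 and 703 RPKM in those of mouse 286. The spermatogonia library of KO mouse 544 held 13827 RPKM of the same markers, where the other 3 spermatogonia libraries held 10.8 to 651 RPKM. KO stage and genotype results are given with and without it. The 6 primary spermatocyte markers, such as Sycp3 and Hormad1, summed to 1943 RPKM in the spermatogonia of WT mouse 178 and to 674 RPKM in its primary spermatocytes, to 686 and 2363 RPKM in the same stages of mouse 648, and to 1254 RPKM in the spermatogonia of KO mouse 286. The 28 columns of the table also fall into 4 sets that lack values for the same transcripts: all libraries of mouse 648 share 1 set with mouse 614, those of mice 544 and 550 and the ovary share another, and mouse 613 is alone. The other 14 form the fourth. The full-length Csmd1 transcript was at 0.025 and 0.264 RPKM in the WT testes and at 0.028 to 0.629 RPKM in the KO testes. In the sorted libraries used it was at 0.008 to 0.517 RPKM in the WT and 0.015 to 2.004 RPKM in the KO. The highest KO level was in the spermatids of mouse 544. The deletion covers a small part of that transcript. In knockout testes the paper reports fewer reads over most of its exons and more over the last ones. A level for the whole transcript does not separate these parts, so it does not check the genotype labels.

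The 3 highest means belonged to transcripts of repeated DNA. Gm42418 (chr17:39846958-39848788, plus strand, a single exon) had a mean of 50242 RPKM, Gm26870 (chr9:3000282-3038313, minus strand) 3000 RPKM, and Gm26917 (chr17:39843013-39846341, plus strand) 457 RPKM. Gm26917 and Gm42418 are neighbours on chromosome 17, where the assembly holds a copy of the ribosomal DNA unit. Reads from such repeats map to many places, so these 3 levels are uncertain. The first 150 bases of Gm42418 (chr17:39846958-39847107) are shown because they let the RNA be recognised: they lie in the 18S ribosomal RNA, the RNA of the small ribosomal subunit.
Gm42418: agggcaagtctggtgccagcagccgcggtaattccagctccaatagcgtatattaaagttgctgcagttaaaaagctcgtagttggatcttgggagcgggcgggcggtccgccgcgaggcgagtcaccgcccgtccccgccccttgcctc

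Gm26870 is built from a tandem repeat. Its 3 GENCODE transcripts each matched themselves best when shifted by 234 bases, with 95.9, 81.5 and 78.3% identity, against medians of 30.4 to 30.8% over all shifts tried. In the transcript with the highest identity the following 3 units were 92.7, 94.0 and 94.4% identical to the first. This is the unit length of the major satellite, the repeat of mouse pericentromeres. The first unit is shown because the whole transcript repeats it.
Gm26870: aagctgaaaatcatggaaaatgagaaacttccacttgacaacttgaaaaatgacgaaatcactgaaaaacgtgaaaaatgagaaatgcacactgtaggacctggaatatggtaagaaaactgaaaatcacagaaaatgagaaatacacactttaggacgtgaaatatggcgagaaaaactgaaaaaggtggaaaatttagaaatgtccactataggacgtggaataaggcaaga

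The levels of these repeat transcripts differed widely between libraries of 1 stage. Gm42418 ranged from 4837 RPKM in the spermatids of mouse 648 to 135347 RPKM in those of mouse 351. Of the 5 libraries of mouse 648, 4 (4837 to 9163 RPKM) lay below every other male library used, and its spermatogonia (19296 RPKM) lay above the spermatids of mouse 286 (17269 RPKM). Gm26870 ranged from 4.42 RPKM in the spermatogonia of mouse 286 to 18342 RPKM in those of mouse 648, 2 libraries of the same stage. It stood at 27771 RPKM in the testis of mouse 178 and at 19.7 RPKM in that of mouse 648, while in the spermatids of the same mice the order was the opposite, with 352 and 1292 RPKM. The 3 took 0.50 to 14.1% of the summed RPKM of all genes in a sorted library (median 4.90%). The other 197 lincRNAs together took 0.156 to 0.482% (median 0.330%), or 1470 to 4541 RPKM. What moves the 3 repeat transcripts between libraries was not tested.

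**Figure D1:**
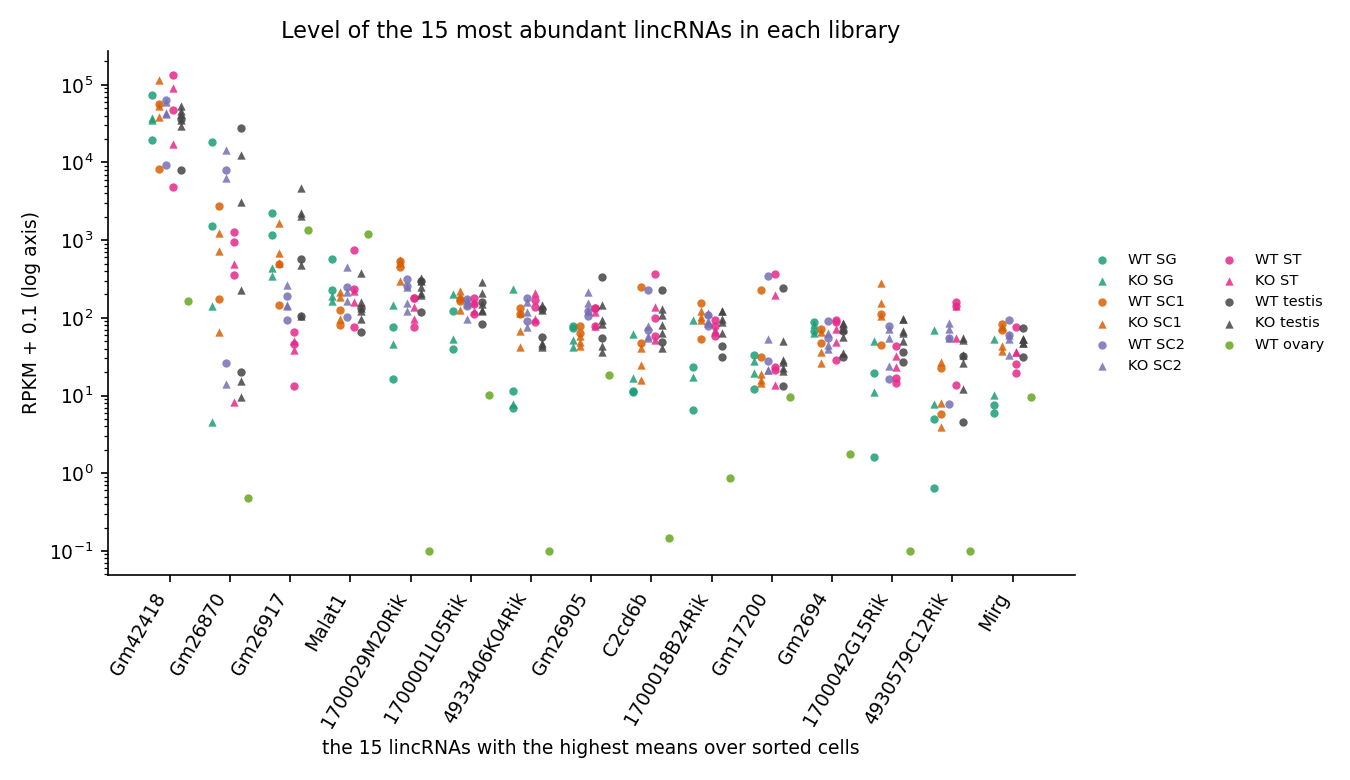
RPKM + 0.1 on a log axis of the 15 lincRNAs with the highest means over sorted cells, 1 point per library, with circles for WT and triangles for KO and 1 colour per cell type or tissue (SG spermatogonia, SC1 and SC2 primary and secondary spermatocytes, ST spermatids). Gm26870 spans 4.42 to 18342 RPKM over sorted libraries, and 4 of the 15 are listed at 0 RPKM in the ovary.

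Below the repeats, the most abundant lincRNAs were Malat1 at a mean of 236 RPKM, 1700029M20Rik at 232, 1700001L05Rik at 144 and 4933406K04Rik at 108. Malat1, a nuclear RNA found at speckles in most tissues, stood at 75.3 to 746 RPKM over the 19 libraries and 1700001L05Rik at 39.1 to 219 RPKM, so neither was low in any stage. 1700029M20Rik (chr4:135626655-135630198, plus strand) was highest in primary spermatocytes, with 537 and 458 RPKM in WT mice 178 and 648 and 563, 508 and 299 RPKM in KO mice 544, 550 and 614. In WT spermatogonia it stood at 76.2 and 16.1 RPKM and in WT spermatids at 77.0 to 178 RPKM, so the primary spermatocytes of the 2 WT mice did not overlap with either. In the WT stage test given further on it was called in neither spermatocyte stage. The log2 difference was 1.98 ± 0.64 (SE) in primary spermatocytes (limma, adjusted p = 0.15) and 1.04 ± 0.64 in secondary spermatocytes (adjusted p = 0.76). 4933406K04Rik (chr12:106685607-106716362, minus strand) was low in spermatogonia, at 11.4, 6.83 and 7.67 RPKM in mice 178, 648 and 286, and at 41.8 RPKM or more in every other sorted library. In the spermatogonia library of mouse 544 it stood at 233 RPKM.

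The stage profiles of the next 8 differed. Gm26905 and Gm2694 (means 94.9 and 62.0 RPKM) were not called for any difference between WT stages (limma, adjusted p = 0.37 and 0.64). Gm26905 lay between 41.9 and 218 RPKM in all 19 libraries. 1700018B24Rik, 1700042G15Rik and Mirg (79.8, 60.9 and 46.5 RPKM) were lower in WT spermatogonia than in the other stages (adjusted p = 0.0059, 0.033 and 0.0015 in the stage test given further on). 4930579C12Rik (49.1 RPKM) was highest in spermatids, with 159, 141 and 13.5 RPKM in WT mice 178, 351 and 648. C2cd6b and Gm17200 (88.1 and 78.1 RPKM) had their 3 highest sorted levels in the spermatocytes and spermatids of mouse 648: Gm17200 had 365.5 RPKM in its spermatids, against 23.5 and 21.1 RPKM in those of mice 178 and 351. Gm17200 (chr9:123678096-123701046, plus strand) shares exon bases with Ccr9 on its own strand and with Lztfl1 on the other, and its reads cannot be told apart from theirs.

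The 200 were also described by their names and gene structure. A symbol from a RIKEN cDNA clone beginning with 17 or 49, series named largely from testis libraries, was carried by 82 of 200 (41.0%), against 129 of the 1423 other lincRNAs (9.07%). More than 1 transcript was listed for 86 (43.0%) against 15.5%, which the choice itself favours, since the level sums over transcripts and counts shared reads on each. With the highest transcript in place of the sum 181 of the 200 would have been chosen. The longest transcript had a median of 1095.5 nt, against 1095 nt in the others. An exon overlapped a coding gene on either strand in 37 (18.5%, against 12.0%), on the opposite strand in 33 of them. Whether reads were counted by strand is not given in the sources used here, so those 37 levels may hold reads of the other gene. Of the 200, RefSeq classes 122 as lncRNA, 7 as transcribed or other pseudogenes and 7 as protein-coding, and 64 had no entry under the same symbol. The 7 listed as coding are Gm15104, 4930571K23Rik, 1810058I24Rik, 1810020O05Rik, Tmem250-ps, 4930591A17Rik and Scml1.

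A start within 1000 nt of a coding gene's start on the opposite strand, a divergent arrangement, was found for 24 of the 200 (12.0%, against 9.21% of the other lincRNAs). The coding partner had the higher mean in 17 of the 24 pairs, and in 12 of them both genes were highest in the same WT stage. 4930426I24Rik and its partner Hspa2, the heat shock protein of meiotic cells, were both highest in primary spermatocytes, at 194 nt between starts. C030037D09Rik, by contrast, was highest in spermatids, and Msi2, an RNA-binding protein gene 132 nt away, in spermatogonia. These 2 pairs were picked after their values were seen.

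Stage was compared in the 9 WT sorted libraries, each stage against the mean of the other 3, with limma on quantile-normalised log2(RPKM + 0.1). All 200 passed the filter of a mean of 0.1 RPKM. Any difference between stages was called (adjusted p below 0.05 over all genes) for 126 of them, 63.0%, where 34.1% of 21685 genes tested were called. WT spermatogonia differed most: 121 were lower there (60.5%) and 11 higher (5.50%), where 18.4% of all genes were called lower and 18.8% higher. The median log2 difference was -2.68 for the 200 and -0.04 for all genes, on this scale. Among the 632 other lincRNAs tested 21.4% were lower in spermatogonia, and among 16506 protein-coding genes 18.1%. Without the spermatogonia of mouse 178, which held the most primary spermatocyte marker RNA of the 4 spermatogonia libraries, the counts were 112 lower and 7 higher (14.7% and 16.3% of all genes). The part of that RNA in these counts was not tested. Without the spermatogonia of mouse 648 the counts were 55 lower and 8 higher, where 7.02% of all genes were lower and 6.14% higher. Without all libraries of mouse 648, which leaves 1 residual degree of freedom, none was called. Spermatogonia make up 4 of the 19 libraries behind the mean that chose the genes, so a gene expressed in spermatogonia alone was less likely to be among the 200.

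**Figure D2:**
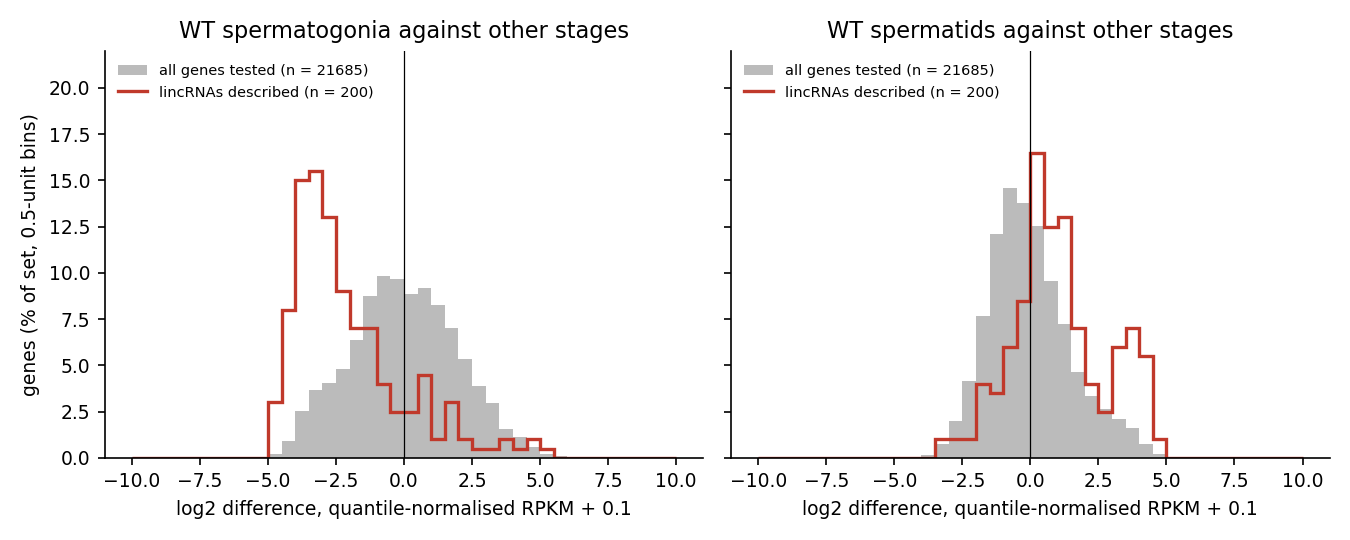
Distribution of log2 differences on the quantile-normalised log2(RPKM + 0.1) scale, in bins of 0.5, for all 21685 genes tested (grey) and the 200 lincRNAs (red line), as a percentage of each set. In WT spermatogonia the red line peaks far to the left of the grey, with a median of -2.68, and in WT spermatids it lies to the right, with a median of 0.84.

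WT spermatids showed the opposite direction. Of the 200, 64 were higher in spermatids (32.0%) and 6 lower (3%), where 11.9% of all genes were called higher and 11.5% lower. The median log2 difference was 0.84, against -0.19 for all genes. Of the other lincRNAs 19.3% were higher, and of protein-coding genes 11.1%. The WT spermatid libraries are among the 19 whose mean chose the 200, so a high level in spermatids itself favoured the choice. The other sets also hold genes of lower level, down to a mean of 0.1 RPKM. The same holds for the stages of the highest level given below. The count in both directions, 70, was 22 without the spermatids of mouse 178 (6.78% of all genes), 28 without those of mouse 351 (7.60%) and 73 without those of mouse 648 (29.8%). It was 0 without all 4 sorted libraries of mouse 648, which leaves 1 residual degree of freedom. Neither spermatocyte stage had a call with this fit in the WT. In primary spermatocytes 0% of all genes were called as well, with 84 of the 200 and 4556 of all genes at an unadjusted p below 0.05. In secondary spermatocytes the share was again 0%, with 37 and 1504 at that unadjusted level. Libraries of 1 mouse are paired across stages, and with the mouse as a block 30 were higher and 8 lower in primary spermatocytes (3.86 and 4.14% of all genes). The block left the secondary spermatocytes at 0.

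By mean level in the WT, spermatids had the highest level for 79 of the 200 (39.5%), primary spermatocytes for 58 (29.0%), secondary spermatocytes for 36 (18%) and spermatogonia for 27 (13.5%). Protein-coding genes at 0.1 RPKM or more were spread differently, with 46.3% highest in spermatogonia and 22.4% in spermatids. Over the 200, the highest WT stage mean was a median of 12.0 times the lowest (quartiles 4.56 and 22.7). The stage of the highest level was the same in mice 178 and 648 for 133 of the 200. It was the same in mice 178 and 544 for 92, and in mouse 544 66 of the 200 were highest in the spermatogonia library with the late spermatid markers.

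**Figure D3:**
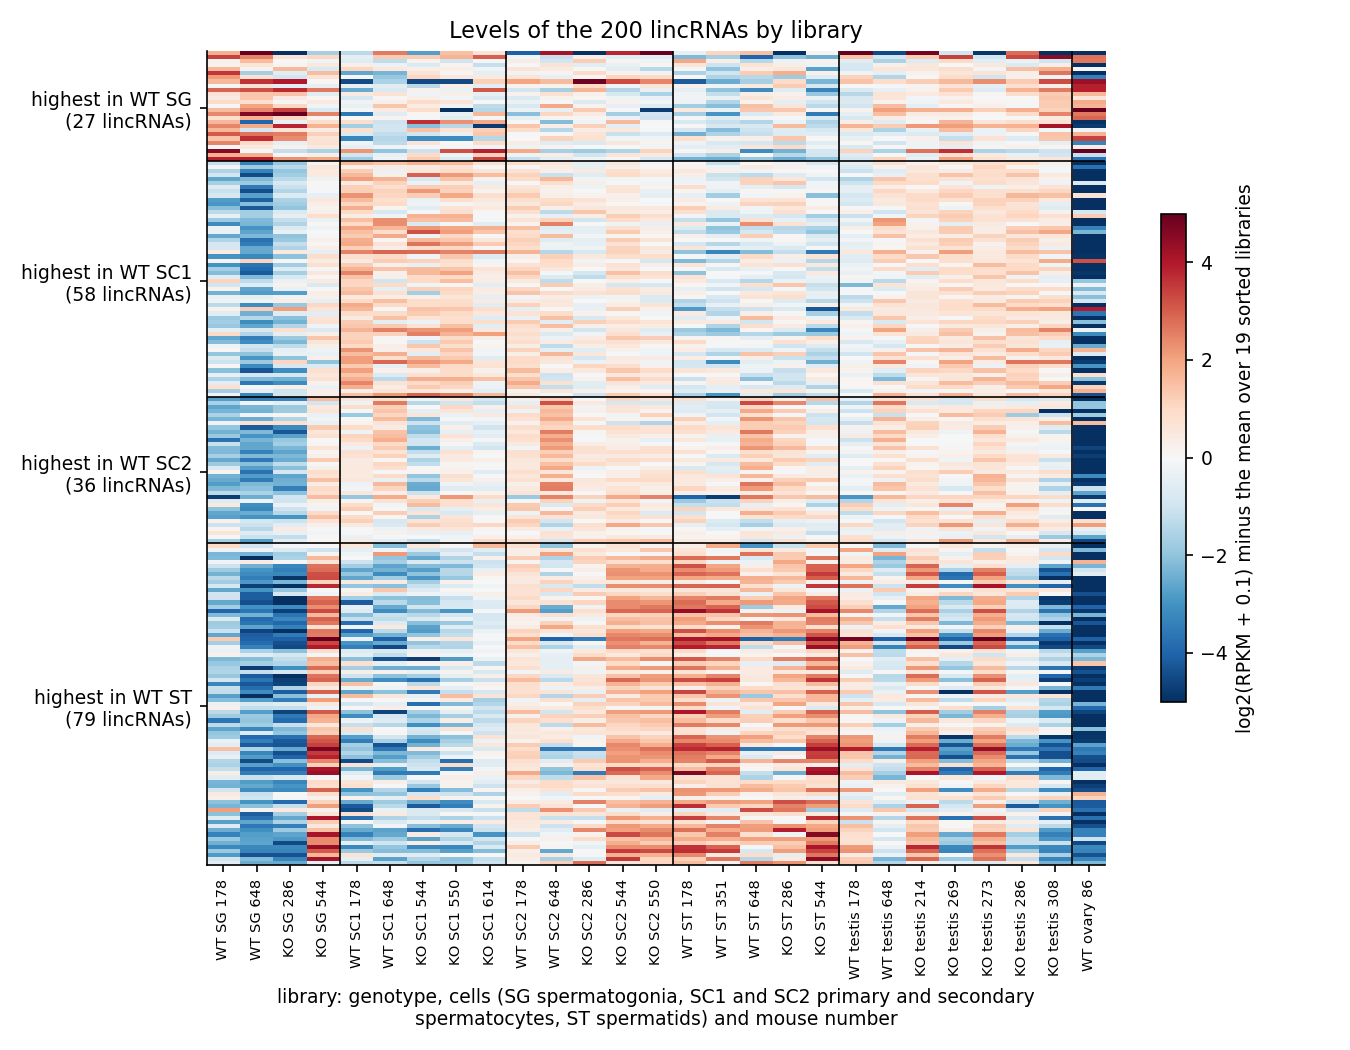
Level of each of the 200 lincRNAs (rows) in the libraries used (columns), as log2(RPKM + 0.1) minus the row's mean over the 19 sorted libraries, with colours cut at -5 and 5. Rows are grouped by the WT stage with the highest mean (27, 58, 36 and 79 lincRNAs), and the spermatogonia of KO mouse 544 resemble the spermatid columns in the lowest block.

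The 11 lincRNAs that were higher in WT spermatogonia include known imprinted RNAs. H19, the maternally expressed precursor of a microRNA, had 23.9 and 29.5 RPKM in WT spermatogonia and 0.271 to 2.17 RPKM in the 7 other WT sorted libraries. The log2 difference was 4.56 ± 0.68 (SE, adjusted p = 0.0016). Meg3, a maternally expressed RNA of the Dlk1-Dio3 region, had 6.83 and 27.3 RPKM in spermatogonia, against 0.002 to 8.85 RPKM elsewhere in the WT, so its groups overlapped. Its log2 difference was 3.55 ± 1.03 (adjusted p = 0.024). Gm12031 had 18.5 and 19.2 RPKM in WT spermatogonia and 0.134 to 0.992 RPKM in the rest, and it had the smallest adjusted p of the 11 (0.0010, log2 difference 5.01 ± 0.64). Gm14230, divergent to the transcription factor gene Tgif2, had 24.1 and 18.4 RPKM against 0.445 to 2.70 RPKM (3.57 ± 0.58, adjusted p = 0.0022). Gm26917, of the ribosomal repeat, was the other of the 4 with the smallest adjusted p (4.42 ± 0.71, adjusted p = 0.0020), with 2222 and 1154 RPKM in spermatogonia.

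Markers of somatic cells were found in the spermatogonia libraries, and some also in secondary spermatocytes. The 6 peritubular and stromal markers summed to 127 and 778 RPKM in WT spermatogonia, to 22.2 and 120 RPKM in secondary spermatocytes, and to 3.17 to 13.9 RPKM in the other WT sorted libraries, and none of the 6 was at 0 throughout spermatogonia. The Sertoli cell markers summed to 368 and 658 RPKM in the spermatogonia of mice 178 and 648, to 452 and 267 RPKM in their secondary spermatocytes and to 31.7 to 160 RPKM in the other WT sorted libraries, and the macrophage markers to 14.6 and 60.3 RPKM against 1.54 to 12.6 RPKM. The 6 Leydig cell markers summed to 15.1 and 328 RPKM in the spermatogonia of mice 178 and 648, to 72.6 and 40.3 RPKM in their secondary spermatocytes, and to 2.94 to 11.9 RPKM in the other WT sorted libraries. Of the 6 Sertoli cell markers Rhox5 was at 0 in every WT sorted library, and 2, Rhox5 among them, were below 1 RPKM throughout WT spermatogonia. Fewer cells of a type and less RNA per cell cannot be told apart in such libraries. The part of somatic RNA in the higher levels of H19, Meg3, Gm12031 and Gm14230 was not tested.

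Among the 64 that were higher in WT spermatids, the 4 with the smallest adjusted p were 4930444M15Rik, Gm20611, 4932416K20Rik and 4931403G20Rik, each at an adjusted p of 0.0047. 4930444M15Rik (chr14:76514558-76520855, minus strand) had 9.48, 5.01 and 6.01 RPKM in the spermatids of mice 178, 351 and 648 and 0.066 to 1.63 RPKM in the other WT sorted libraries. The log2 difference was 4.22 ± 0.43. Gm20611 (chr10:61031303-61038080, plus strand) had 13.2, 17.3 and 12.3 RPKM in spermatids against 0.156 to 7.85 RPKM, with the higher of the latter in secondary spermatocytes (3.61 ± 0.46). In all 4 the 3 spermatid libraries lay above every other WT sorted library. 4931403G20Rik shares exon bases with Map4k5 on the opposite strand.

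Other lincRNAs of this group differed between mice in the same order as the late spermatid markers. C030037D09Rik (chr11:88718645-88728893, plus strand) had 101 and 43.7 RPKM in the spermatids of mice 178 and 351 and 13.8 RPKM in those of mouse 648 (3.21 ± 0.68, adjusted p = 0.012). Smkr-ps had 58.2, 50.4 and 19.6 RPKM in the same order (3.31 ± 0.49, adjusted p = 0.0048). 4930562F07Rik, whose exon bases overlap 4930523C07Rik on the opposite strand, had 69.9, 61.1 and 10.8 RPKM (3.99 ± 0.67, adjusted p = 0.0059). In each of these 3 the spermatids of mouse 648 were below those of both other WT mice. These 3 were picked after their values were seen.

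Promoter sequence was available from RefSeq (GRCm38.p6, 250 bases before to 50 after a gene's start) for 101 of the 200. The RefSeq start can differ from GENCODE's. They were searched on both strands for TGACGTCA, the cAMP response element bound by the spermatid activator CREM, for its core TGACG, and for AACNGTT, the letters bound by MYB proteins such as the meiotic factor A-MYB. The first and second overlap by construction. TGACGTCA was found in 7 of 101 (6.93%), against 2.03% of 27025 genes, and in 2 of the 38 that were higher in WT spermatids (5.26%). It was found in 4 of the 32 with the highest WT level in primary spermatocytes (12.5%) and in 2 of the 46 with the highest level in spermatids (4.35%). TGACG was found in 24 of 101 (23.8%, against 23.0%). AACNGTT was found in 11 of 101 (10.9%, against 5.01%) and in 6 of 32 with the highest WT level in primary spermatocytes (18.8%). It was found in 5 of the 46 with the highest level in spermatids (10.9%) and in 4 of the 38 higher there (10.5%). A match is a description of these letters and says nothing of binding. The 2 promoters of spermatid lincRNAs that hold TGACGTCA are shown first, with the element in capitals. They are C030037D09Rik (chr11:88718393-88718692, plus strand, element from -204) and Gm3764 (chr3:88214232-88214531, plus strand, from -91). Meg3 (chr12:109540746-109541045, plus strand, from -57) is added as a lincRNA that was lower in spermatids and holds the same letters. 1700026J12Rik (chr16:49255723-49256022, minus strand, from -36) and 1700110I01Rik (chr14:3262152-3262451, plus strand, from -101) are the 2 most abundant with AACNGTT, in capitals, among those highest in WT primary spermatocytes.
C030037D09Rik: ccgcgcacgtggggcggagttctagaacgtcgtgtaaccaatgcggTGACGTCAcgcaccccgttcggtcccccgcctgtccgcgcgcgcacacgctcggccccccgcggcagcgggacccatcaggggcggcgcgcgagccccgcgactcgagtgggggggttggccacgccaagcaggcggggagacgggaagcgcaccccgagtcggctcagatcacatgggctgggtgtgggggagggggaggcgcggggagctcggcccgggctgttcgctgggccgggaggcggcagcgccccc
Gm3764: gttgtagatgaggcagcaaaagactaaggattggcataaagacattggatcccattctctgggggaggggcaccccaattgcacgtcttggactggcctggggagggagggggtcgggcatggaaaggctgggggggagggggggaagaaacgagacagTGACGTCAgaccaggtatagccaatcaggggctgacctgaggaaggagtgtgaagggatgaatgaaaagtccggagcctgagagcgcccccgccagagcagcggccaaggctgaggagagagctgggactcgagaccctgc
Meg3: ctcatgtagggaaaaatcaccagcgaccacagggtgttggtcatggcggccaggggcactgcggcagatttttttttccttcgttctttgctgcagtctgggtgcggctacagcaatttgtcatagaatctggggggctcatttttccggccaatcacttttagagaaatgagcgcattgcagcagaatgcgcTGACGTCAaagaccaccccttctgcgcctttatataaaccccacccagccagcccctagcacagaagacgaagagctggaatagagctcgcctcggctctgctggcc
1700026J12Rik: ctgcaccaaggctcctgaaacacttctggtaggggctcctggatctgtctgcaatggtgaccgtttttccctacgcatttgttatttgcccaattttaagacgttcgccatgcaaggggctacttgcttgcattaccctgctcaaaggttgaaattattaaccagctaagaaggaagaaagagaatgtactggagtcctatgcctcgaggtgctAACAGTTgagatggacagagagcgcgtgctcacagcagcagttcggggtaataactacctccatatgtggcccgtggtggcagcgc
1700110I01Rik: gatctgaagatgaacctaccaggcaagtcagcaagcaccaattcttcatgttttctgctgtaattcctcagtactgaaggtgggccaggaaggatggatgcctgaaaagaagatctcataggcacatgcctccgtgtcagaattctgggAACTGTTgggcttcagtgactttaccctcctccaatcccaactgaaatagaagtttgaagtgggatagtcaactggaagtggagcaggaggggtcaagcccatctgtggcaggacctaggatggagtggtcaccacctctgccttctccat

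The members with these letters had distinct profiles. Gm3764 had 6.57, 11.6 and 8.73 RPKM in the spermatids of WT mice 178, 351 and 648, and at most 2.79 RPKM in the other WT sorted libraries (3.40 ± 0.69, adjusted p = 0.010). 1700026J12Rik had 131 and 98.6 RPKM in WT primary spermatocytes and 4.86 and 6.29 RPKM in WT spermatogonia. 1700110I01Rik had 59.6 and 18.5 RPKM in primary spermatocytes, which overlapped with 40.9 and 20.4 RPKM in secondary spermatocytes.

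The X chromosome carried 11 of the 200 (5.50%, against 5.34% of the other lincRNAs). In the WT means, 9 of these 11 were lowest in primary spermatocytes, 9 were highest in spermatids, and 0 were highest in primary spermatocytes. Of the 189 autosomal lincRNAs 31 (16.4%) were lowest in primary spermatocytes, 58 highest there and 70 (37%) highest in spermatids. By mouse, primary spermatocytes were lowest for all 11 X-linked and 24.9% of autosomal lincRNAs in mouse 178 and for 5 of 11 and 11.6% in mouse 648, where spermatogonia were lowest for 6 of the 11 (54.5%) and 76.7% of autosomal lincRNAs. In mouse 544 they were lowest for 8 of 11 and 57.1%, and spermatids were highest for 2 of the 11 (18.2%) and 18% of autosomal lincRNAs, with late spermatid RNA in its spermatogonia library. 1700010D01Rik had 0.307 and 3.46 RPKM in WT primary spermatocytes and 21, 27.9 and 34.0 RPKM in WT spermatids. Its WT mean was 0.950 RPKM in spermatogonia and 1.88 RPKM in primary spermatocytes. Gm14773 had 0.339 and 1.47 RPKM in primary spermatocytes and 21.8, 13.8 and 12.1 RPKM in spermatids. Its WT mean was 0.429 RPKM in spermatogonia and 0.904 RPKM in primary spermatocytes. These are the 2 of the 11 that were lowest in spermatogonia and not in primary spermatocytes. Both were higher in spermatids without overlap (3.77 ± 0.72, adjusted p = 0.0084, and 3.89 ± 0.58, adjusted p = 0.0048). The other pattern was that of Tslrn1, with 15.1 and 10.1 RPKM in WT spermatogonia, 0.770 and 1.33 in primary spermatocytes and 1.52 to 2.62 in spermatids (higher in spermatogonia, 2.06 ± 0.49, adjusted p = 0.011). Chromosomes were compared by these counts alone, with no test.

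The same stage comparison was made in the 10 KO libraries. In KO spermatogonia 0 of the 200 were called, as were 0% of all genes, with 66 of the 200 and 4153 of all genes at an unadjusted p below 0.05. Without the spermatogonia library of mouse 544, which leaves mouse 286 alone in that group and assumes that it varies like the others, 97 were lower and 4 higher (12.4 and 10.4% of all genes). KO secondary spermatocytes had 0 calls (0% of all genes), with 15 of the 200 (7.5%) and 5.71% of all genes at an unadjusted p below 0.05. Without that library the count stayed at 0, with 89 of the 200 and 21.4% of all genes at that unadjusted level. KO spermatids had 0 calls (0% of all genes), with 38 of the 200 (19%) and 21.9% of all genes at that level. Without the spermatogonia library of mouse 544, 53 were higher in KO spermatids and 8 lower, where 18.9% of all genes were called. With the mouse as a block 16 were called in KO spermatids (10.4% of all genes). In KO primary spermatocytes 13 were higher and 7 lower, where 5.0% of all genes were called higher and 3.10% lower, and 40 were called with the block (19.9% of all genes). 1700029M20Rik and 1700042G15Rik were higher there by 1.83 ± 0.31 and 2.38 ± 0.48 (adjusted p = 0.022 and 0.027). The calls in KO primary spermatocytes came to 0 when the primary spermatocytes of mouse 544 or of mouse 550 or the secondary spermatocytes of mouse 550 were left out, and to 69 without the spermatogonia of mouse 286, where 22.8% of all genes were called. Without the spermatogonia of mouse 544 they came to 28, where 10% of all genes were called.

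Genotype was compared across the 19 sorted libraries, as the mean of KO minus WT over the 4 stages, and in the 7 whole testes. The fit of sorted cells treated libraries of 1 mouse as independent, although mice 178, 648 and 544 each gave all 4 stages. In sorted cells 0 of the 200 were called (limma), where 2 of 22133 genes were (0.00904%), and 13 of the 200 (6.5%) and 8.62% of all genes had an unadjusted p below 0.05. Without the spermatogonia of mouse 544 the count was again 0, with 11 of the 200 and 6.94% of all genes at that level. In whole testis 0 of the 200 and 0% of all genes were called, with 5 of the 200 and 769 of all genes at an unadjusted p below 0.05. Leaving out the spermatogonia of mouse 286 gave 2 calls in sorted cells (152 of 22075 genes, 0.689%), and leaving out the WT testis of mouse 178 gave 1 in whole testis (2 of 21499 genes). The genotype difference was also tested for change between stages, with 0 of the 200 called and 18 (9%) at an unadjusted p below 0.05, where 3.41% of all genes were. Without the spermatogonia of mouse 544 the count was 0 again, with 8 of the 200 and 2.03% of all genes at that level, and without the spermatogonia of mouse 286 it was 4, where 0.399% of all genes were called. 4930444M15Rik had the smallest adjusted p of the 200 in sorted cells (0.54, log2 difference 1.12 ± 0.41). The median log2 difference of the 200 was 0.11 in sorted cells and -0.27 in testis. The WT testes are those of mice 178 and 648, whose levels differed as follows.

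The testes of the 2 WT mice differed in content. The late spermatid markers summed to 6684 RPKM in the testis of mouse 178 and to 189 RPKM in that of mouse 648, and the 6 primary spermatocyte markers to 258 and 2655 RPKM. With 1 library each there is no test, and a difference of at least 4-fold on log2(RPKM + 0.1) was taken as the limit. Of the 200, 37 were at least 4-fold lower in mouse 648 and 21 at least 4-fold higher, where 20.9% of 25313 genes were lower and 5.53% higher. So 18.5% of the 200 were lower and 10.5% higher. How the lower share compares with all genes depended on the scale: after quantile normalisation 19% of the 200 and 9.45% of all genes were lower (7.5 and 6.20% higher), with a pseudocount of 1 RPKM 11% and 2.97% (6.5 and 3.43% higher), and with 0.01 RPKM 20% and 32.6% (11.5 and 6.46% higher). The paper's methods give the sorted mice, both of these among them, 1 age. The paper also shows whole testes of immature males, and the labels give no age. The part of age in these differences was not tested. The mouse and the set of libraries that lack the same transcripts cannot be told apart here.

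The 5 highest of the 37 in the testis of mouse 178 were Gm42418, Gm26870, Gm26917, Gm26905 and 1700009J07Rik. Gm26905 had 337 RPKM in mouse 178 and 54.6 RPKM in mouse 648. 1700009J07Rik (chr10:77893417-77896114, plus strand) had 45.4 RPKM in mouse 178 and was listed at 0 in all 5 libraries of mouse 648. It was also listed at 0 in the KO testes of mice 269, 286 and 308, and stood at 55.3 and 83.9 RPKM in those of mice 214 and 273. In spermatids it had 27.6, 28.7 and 39.8 RPKM in mice 178, 351 and 544 and 0.045 RPKM in mouse 286. The most raised in mouse 648 were Gm26972 (0.251 against 8.14 RPKM), Gm17200 (13.3 against 242 RPKM) and 2310031A07Rik (1.75 against 14 RPKM, with exon bases shared with Med7 on the opposite strand).

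The 37 were then compared with the late spermatid markers, first in the 5 KO testes, which had no part in choosing either the 37 or the 200. Their median was 14.2 and 12.4 RPKM in the KO testes of mice 214 and 273, where the markers summed to 10766 and 13251.5 RPKM. It was 0.873, 1.49 and 0.250 RPKM in the KO testes of mice 269, 286 and 308, where the markers summed to 35.6, 56.3 and 11.1 RPKM. Other markers moved too. The 6 round spermatid markers summed to 763 and 736 RPKM in mice 214 and 273, and to 110, 180 and 94.5 RPKM in mice 269, 286 and 308. The 6 Sertoli cell markers were at 629 and 661 RPKM, and at 1199, 822 and 1956 RPKM, in the same order, with Rhox5 at 0 throughout. Which of these contents the 37 follow was not tested. All 5 of these testes lack values for the same transcripts, unlike the testis of mouse 648. The ages of mice 214, 269, 273 and 308 are not known here, and the part of age in these levels was not tested. The sorted libraries entered the mean that chose the 200, but not the choice of the 37. In spermatids the median of the 37 was 22.7, 13.8 and 22.3 RPKM in mice 178, 351 and 544 (markers 9625, 9012 and 10092 RPKM), and 3.64 and 5.58 RPKM in mice 648 and 286. In the spermatogonia of mouse 544 it was 22.1 RPKM, against 0.240 to 1.53 RPKM in the other spermatogonia. The 21 that were higher in mouse 648 had medians of 3.6 and 16 RPKM in the WT testes of mice 178 and 648, and of 10.5, 12.3, 10.8, 13.6 and 16.3 RPKM in the KO testes of mice 214, 273, 269, 286 and 308, a narrower range. The remaining 142 lincRNAs had medians of 6.62 to 12.2 RPKM in all 7 testes. By WT stage mean, 31 of the 37 (83.8%) were highest in spermatids, against 1 of the 21 that were higher in mouse 648, of which 10 were highest in primary and 7 in secondary spermatocytes. Of the remaining 142, 47 (33.1%) were highest in spermatids. The WT stage means include mice 178 and 648, whose testes defined these sets. The matching shares over all genes were not counted.

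**Figure D4:**
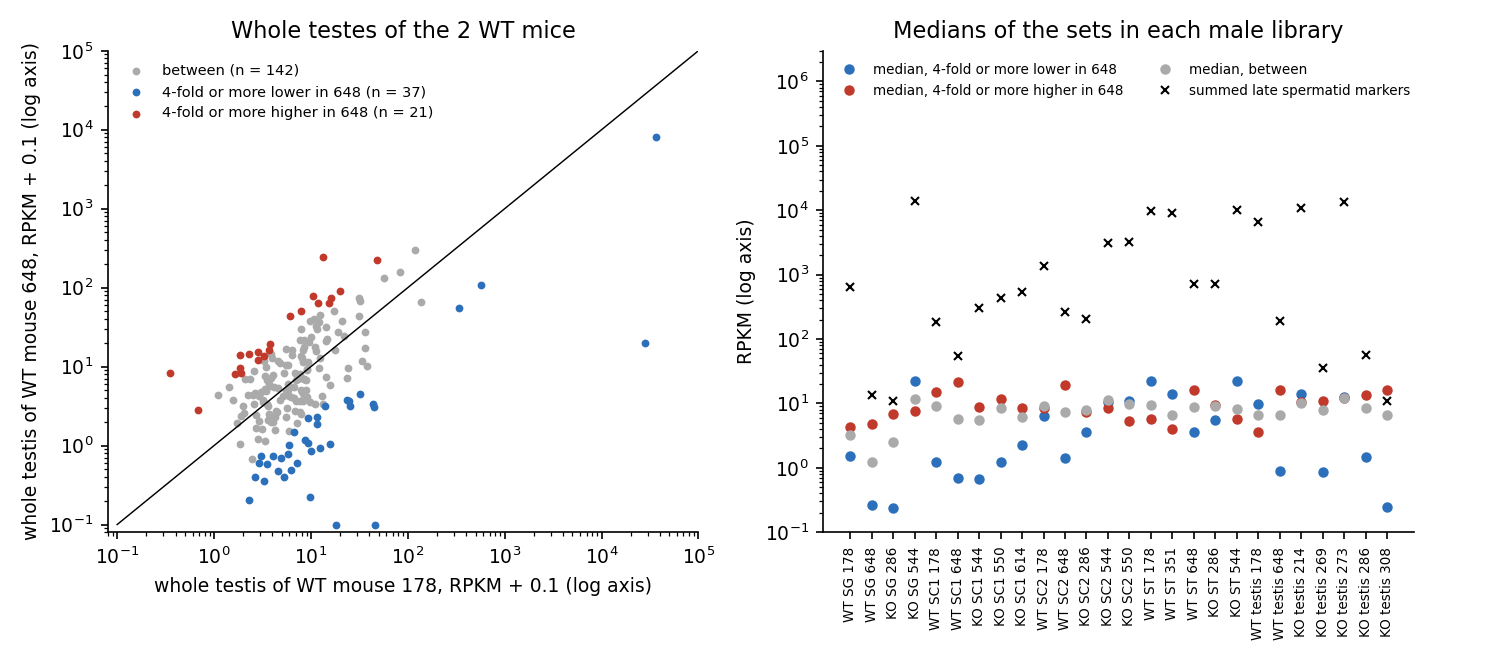
Left, RPKM + 0.1 on log axes of the 200 lincRNAs in the whole testes of WT mice 178 and 648, coloured by a 4-fold limit, with the line of equal levels. Right, the median RPKM of the 37, 21 and 142 lincRNAs of the 3 sets in each male library and the summed level of 8 late spermatid markers (crosses), on a log axis: the median of the 37 is 0.250 to 1.49 RPKM in the KO testes of mice 269, 286 and 308 and 12.4 and 14.2 RPKM in those of mice 273 and 214.

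Sorted spermatids of the same WT mice gave 32 of the 200 at least 4-fold lower in mouse 648 and 15 higher, where 15% of 20410 genes were lower and 5.34% higher. These are 16 and 7.5% of the 200. The 6 primary spermatocyte markers summed to 970 RPKM in the spermatids of mouse 648, against 156 and 103 RPKM in those of mice 178 and 351. The part of that RNA in these counts was not tested. How the lower share compares with all genes again depended on the scale. After quantile normalisation 13.5% of the 200 and 11.2% of all genes were lower. With a pseudocount of 1 RPKM 12.5% and 5.61% were lower, and with 0.01 RPKM 16% and 20.0%. Set against the spermatids of mouse 351 instead, those of mouse 648 had 26 lower and 25 higher (13 and 12.5% of the 200), where 11.8% of all genes were lower and 9.38% higher. Of the 37 chosen on whole testis, 25 were at least 4-fold lower in spermatids too and 0 higher. Among the 21 that were higher in testis 0 were lower in spermatids and 8 higher, and among the remaining 142 7 were lower and 7 higher. Both comparisons set mouse 648 against mouse 178, so any difference between these mice enters both. The matching share over all genes was not counted. 4930579C12Rik, the highest of the 37 in the spermatids of mouse 178 after the repeats, had 159 and 13.5 RPKM in the spermatids of mice 178 and 648 and 32.2 and 4.41 RPKM in their testes. 4930571K23Rik (chr7:125368861-125371013, plus strand) had 49.8 and 11.6 RPKM in those spermatids, 43.9 and 3.21 RPKM in those testes, and 0.316 to 118 RPKM over the KO testes. 4930444M15Rik was lower in the testis of mouse 648 (0.635 against 2.93 RPKM) while its sorted spermatids overlapped with those of the other mice. Gm15104, on the X chromosome, had 41.7, 38.4 and 36.9 RPKM in the spermatids of mice 178, 351 and 648, a difference of less than 4-fold. Prm1, which encodes a protamine, was at 2579, 1299 and 0.579 RPKM in these libraries.

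Lists of well known lincRNAs held few of the 200. Of 42 genes in lists of nuclear, X-inactivation centre, imprinted, snoRNA host and microRNA host RNAs, 18 are classed as lincRNA in the table and 8 were among the 200: Malat1 and Neat1, H19, Meg3 and Mirg, and the snoRNA hosts Snhg6, Snhg12 and Epb41l4aos. No gene of the X-inactivation centre or microRNA host lists was among them, but the latter list was short: Mir9-3hg and Mir670hg, microRNA host genes by name that it does not hold, rank 65 and 124 among the 200. Against the other WT stages, H19 and Meg3 rose in spermatogonia and fell in spermatids (by 1.94 and 3.16 log2 units, adjusted p = 0.044 and 0.034). Mirg, a microRNA host of the same imprinted region as Meg3, moved the other way: it fell by 3.45 ± 0.51 in spermatogonia (adjusted p = 0.0015), with 5.88 and 7.45 RPKM there and 70.2 and 84.2 RPKM in primary spermatocytes. The other 5 passed neither test. Malat1 had 229 and 566 RPKM in WT spermatogonia and 75.3 to 746 RPKM in spermatids, and Neat1, the RNA of paraspeckles, 1.70 to 1.73 and 1.09 to 2.78 RPKM. Snhg6, which shares exon bases with Mcmdc2 on the opposite strand, had 10.2 and 18.4 RPKM in WT spermatogonia (1.55 ± 0.56, adjusted p = 0.055).

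Most of the 200 were low in the ovary. The median in the 1 ovary was 0.181 RPKM, against a median of 8.27 RPKM for their means over sorted cells, while protein-coding genes at 0.1 RPKM or more had a median of 13.0 RPKM in the ovary. Of the 200, 79 (39.5%) were listed at 0, 96 (48.0%) were below 0.1 RPKM and 67 (33.5%) at 1 RPKM or more. Among the 685 other lincRNAs with a mean of 0.1 RPKM or more in sorted cells 37.5% were at 0, a share near that of the 200, while 55.5% were below 0.1 RPKM and 15.3% at 1 RPKM or more, from a lower median in sorted cells (0.431 RPKM). Among protein-coding genes 7.79% were at 0, 11.9% below 0.1 RPKM and 78.4% at 1 RPKM or more. Against the testis of mouse 178, 144 (72%) were at least 4-fold lower in the ovary and 19 (9.50%) higher, where 23.9% of 26952 genes were lower and 32.5% higher. After quantile normalisation 157 were lower and 8 higher (21 and 23.1% of all genes). Summed over all genes, RPKM came to 697245 in the testis of mouse 178, 1198402 in that of mouse 648 and 1447973 in the ovary. Shares on RPKM without normalisation carry this difference in scale. No testis lacks values for the same transcripts as the ovary. The ovary lay below all 7 testes for 132 of the 200 (66%, against 21.4% of all genes) and above all 7 for 22 (11.0%, against 41.1%). 1700029M20Rik, 4933406K04Rik, 1700042G15Rik and 4930579C12Rik, all among the 15 most abundant, were listed at 0. With 1 ovary these are differences between libraries and have no test. The 200 were chosen for a high mean in sorted germ cells, which itself favours a lower level in the ovary. That holds for the comparisons with sorted cells, with testes and with the shares of all genes.

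**Figure D5:**
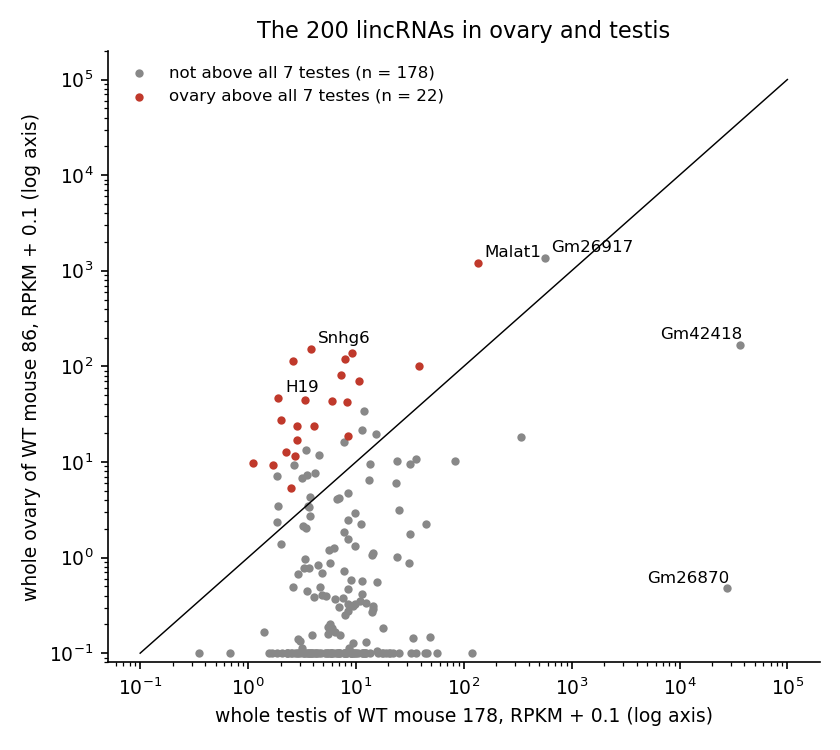
RPKM + 0.1 on log axes of the 200 lincRNAs in the whole testis of WT mouse 178 and the ovary of WT mouse 86, with the line of equal levels and, in red, the 22 above all 7 testes in the ovary. Of the 200, 79 lie on the lower edge, at 0 RPKM in the ovary, and Malat1 and Snhg6 lie above the line.

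A few were abundant in the ovary. The highest in the ovary were Gm26917 (1368 RPKM), Malat1 (1207), Gm42418 (166), Snhg6 (154) and Gm26809 (136). Malat1 stood at 65.7 to 382 RPKM over the 7 testes, Snhg6 at 3.77 to 14.3 RPKM and Gm26809 (chr6:18844220-18847360, plus strand) at 6.73 to 16.6 RPKM, so in all 3 the ovary was above every testis. Gm42418 was below every testis (7997 to 54085 RPKM), while Gm26917, from the neighbouring part of the same repeat, lay within their range (107 to 4649 RPKM). All 8 listed lincRNAs were found in the ovary, Snhg12 at 80.4 RPKM, H19 at 46.8, Meg3 at 43.4, Epb41l4aos at 42.7, Neat1 at 16.1 and Mirg at 9.45 RPKM. The 8 late spermatid markers summed to 0.123 RPKM in the ovary, with Prm1, Prm2, Prm3, Tnp1 and Smcp at 0, and the 6 ovary markers to 1747 RPKM.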

How the data were processed

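RNA-seq of polyadenylated RNA from 28 libraries was used: 9 WT and 11 KO libraries of sorted germ cells, 7 whole testes and 1 ovary. The authors mapped paired reads to Ensembl release 72 with TopHat2 and deposited RPKM values per transcript. These RPKM values carry no batch adjustment or quantile normalisation, since RPKM times length fell on whole reads (within 0.06, up to 6 reads) for 93.5 to 94.9% of values in 27 libraries, against 12% by chance and 13.6% for mouse 613. That step gave the depth. Reads shared by transcripts of a gene were counted on each.

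Transcripts were matched to GENCODE M21 (90339 of 94480, 95.6%) and summed per gene, with missing values as 0. The 200 lincRNAs and the lists were chosen with earlier results of these data known. Values were log2(RPKM + 0.1), quantile-normalised over all genes. The filter kept genes averaging 0.1 RPKM or more over the libraries of a fit. limma 3.58.1 (R 4.3.3) gave the tests, and p-values were adjusted after Benjamini and Hochberg over every gene tested, with a limit of 0.05. Errors with log2 differences are standard errors. No count model was used, and PEER and PoissonSeq, which the paper names, were not run. Tables used pandas and numpy in Python. The fits were tested on simulated data. Genes named were the 15 highest means, the members of the lists, the 4 smallest adjusted p higher in each WT stage, the 5 highest in testis 178 among those lower in testis 648, the 3 most raised there, the 5 highest in the ovary, the 2 called with the smallest adjusted p per direction and genotype comparison (none was called), and 3 on each side of the limit of choice. Other genes named, among them the X-linked and promoter examples, 4930571K23Rik, Gm15104, Mir9-3hg and Mir670hg, and 4930444M15Rik in the genotype comparison, were chosen after their values were seen.

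Libraries of the same mouse are paired by the labels: residuals of same-mouse libraries correlated with a median of 0.447 (22 pairs) and those of different mice with -0.0559 (135 pairs). The block took correlations of 0.328 (WT), 0.305 (KO) and 0.354 (both). Whole-testis p-values compare mice. Alternatives were the scaling, pseudocount, filter, transcript set, block and each library left out.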

Additional observations from a re-analysis of the deposited data

Results flagged for a closer look

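In the 5 KO whole testes 32 values were examined for a library far from the rest (Dixon's test at 95%), and 6 stood apart. Chance flags about 1 in 20 such groups. Gm26870, the satellite transcript, had 12410 RPKM in mouse 214 and 9.62 to 3117 RPKM in the other 4. Malat1 had 381.7 RPKM in mouse 269 against 96.8 to 160 RPKM, and Gm12031 had 5.227 RPKM in the same testis against 0.921 to 2.04 RPKM. The testis of mouse 308 held the other 3. Gm17200 stood there at 49.74 RPKM against 20.3 to 28.5 RPKM, Gm14230 at 7.793 RPKM against 1.72 to 2.69 RPKM, and Gm26972 at 4.97 RPKM against 5.44 to 5.47 RPKM, a narrow range. In that testis the late spermatid markers summed to 11.1 RPKM and the spermatogonia markers to 381 RPKM. Its peritubular and stromal markers summed to 105 RPKM, against 9.29 to 23.8 RPKM in the other KO testes. Its Sertoli cell markers summed to 1956 RPKM, against 629 to 1199 RPKM. Their part in these values was not tested.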

How the results depend on the processing

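None of the 8 lincRNAs named from the WT stage tests changed direction in any alternative run. The median of the 200 between the spermatids of mice 648 and 178 was -0.11 on the log2 scale and changed sign with quantile normalisation (0.12) and against mouse 351 (0.32). Between the testes it was -0.04, and 0.04 with the highest transcript. Counts of the 200 lincRNAs called moved with the libraries used. Without all libraries of mouse 648, which leaves 1 residual degree of freedom, the counts were 0 for WT spermatogonia, WT spermatids and any WT stage difference, and the 8 lincRNAs named as higher in a WT stage had adjusted p of 0.0635 to 0.1077. Leaving out 1 library gave 63 to 138 calls for WT spermatogonia, 22 to 73 for WT spermatids and 54 to 137 for any WT stage difference. The lowest of these were without the spermatogonia of mouse 648 for the first and the last. In the KO it gave 0 to 101 for spermatogonia, 0 to 69 for primary spermatocytes (12 without mouse 614 or without the spermatids of mouse 544) and 0 to 61 for spermatids (61 without the spermatogonia of mouse 544). For genotype it gave 0 to 2 in sorted cells and 0 to 1 in whole testis. Without all libraries of mouse 544 the KO counts were 65 for spermatogonia (1 higher and 64 lower, where 3.76% of all genes were higher and 8.34% lower) and 0 for primary spermatocytes (0% of all genes). A group left with 1 library is assumed to vary like the others.

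The replicate block, with libraries of 1 mouse paired, gave 38 calls for WT primary spermatocytes, 40 for KO primary spermatocytes and 16 for KO spermatids, and changed no other call count by over 1.5 times. No paired analysis was possible because each mouse gave 1 testis, in the comparison of whole testes. RPKM as deposited, without quantile normalisation, gave 3 calls for KO spermatids. A pseudocount of 1 RPKM left 35 lincRNAs past the 4-fold limit between the testes of mice 648 and 178. The other 193 values of counts stayed within 1.5 times, also with the highest transcript in place of the sum, a choice made after seeing the data. Choosing the lincRNAs by the median shared 176 of the 200, by the mean of group means 198, and by the highest transcript 181. The p-values from sorted cells pool the spread between libraries within groups of 2 or 3 mice, while the KO whole testes came from more mice. The main fits treated libraries of 1 mouse as independent. The genotype p-values from sorted cells therefore do not measure the spread between mice.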
